A study of Mus musculus with 12 samples.

Results

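TET2 sites that lay at the ends of genes and were found in both leukemic and immortalized blood cells are described here: 491 of the 6778 TET2 sites of the acute myeloid leukemia (AML) culture on chromosomes 1 to 19. They were chosen by position. Overlapping rows within each deposited list were merged. An AML site was kept when it shared at least 1 bp with a site of the second culture (called myeloid here) and its midpoint lay within 1 kb of the start or end coordinate of a protein-coding gene. A gene end therefore means either a transcription start or a transcription end. The merged myeloid list held 18533 sites.

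The study performed chromatin immunoprecipitation sequencing (ChIP-seq), which recovers DNA fragments bound by a protein, with a rabbit polyclonal antibody raised against the N-terminal part of TET2, in cultured mouse cells. The myeloid culture was of hematopoietic cells immortalized with the retroviral transgene MigR1-AML1-ETO, with the genotype Tet2fl/fl; AML1-ETO in the wild-type libraries and Tet2-/-; AML1-ETO in the knockout libraries. The AML culture carried Npm1+/cA; Fl3+/ITD (spelled as the labels spell it), with Tet2-/- added in the knockout libraries, and no transgene. With the TET2 antibody each culture gave 2 libraries of wild-type and 2 of knockout cells. An input and an IgG library of the wild-type genotype brought the total to 12 libraries. The medium of both cultures contained the cytokines SCF at 50 ng/ml and IL-3 and IL-6 at 10 ng/ml each. All 12 libraries came from cells crosslinked with DSG at 2 mM and formaldehyde at 1%, with DNA fragments of 200 to 500 bp. All groups came from cultured lines, so no group holds primary cells, and the labels do not say how many independent lines stand behind the replicates.

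The files give 1 list of site coordinates per culture. They hold no height, score or value per library, so the depth behind a site is unknown, no site has a replicate error, and wild-type was not compared with knockout here. Without expression values the cell types could not be checked against markers. Intervals below are exact Clopper-Pearson 95% intervals, which cover counting error over sites or genes only. Sites near each other are not independent, so the p-values of Fisher's exact test below treat sites as separate units and compare 2 lists, not replicated conditions.

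TET2 is a dioxygenase that oxidizes 5-methylcytosine in DNA to 5-hydroxymethylcytosine and further products, a step toward loss of methylation. Its gene is often mutated in myeloid cancers and in clonal hematopoiesis. TET2 has no CXXC DNA-binding domain of its own, and its placement on chromatin is known to involve partner proteins, among them transcription factors. Promoters rich in CpG dinucleotides are as a rule unmethylated and active in many cell types, whereas CpG-poor promoters more often belong to genes used by 1 or a few cell types.

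Promoters of 8 genes are shown first because the shared sites covered them whole in both cultures and because they span the contrast in sequence that is described further on. Of these, 7 are CpG-poor promoters of blood-cell genes and 1, Cbl, is a CpG-rich promoter. The set is not typical of the members. Of the 356 promoters at shared sites 59.3% were CpG-rich, and 215 were covered whole in both cultures. Each runs from 250 bases before to 50 bases after an annotated transcription start, 5′ to 3′ on the gene's strand, and was taken from RefSeq in the build GRCm38.p6, which shares its chromosome coordinates with mm10. Lyz2, the lysozyme gene of monocytes and granulocytes, has its promoter at chr10:117282223-117282522 (minus strand). S100a8 and S100a9, which encode both subunits of the neutrophil protein calprotectin, have theirs at chr3:90668821-90669120 (plus strand) and chr3:90695672-90695971 (minus strand). Fcnb, a ficolin of granulocytes, lies at chr2:28084829-28085128 (minus strand). The promoter of Runx1, the blood transcription factor also called AML1 from which the fusion AML1-ETO derives, lies at chr16:92826025-92826324 (minus strand), and that of Lyl1, a blood transcription factor, at chr8:84701207-84701506 (plus strand). Hk3, the hexokinase of myeloid cells, has its promoter at chr13:55021336-55021635 (minus strand), and Cbl, a ubiquitin ligase that turns off cytokine receptor kinases, at chr9:44233997-44234296 (minus strand). Capitals mark letters of 4 short motifs on either strand: the ETS forms CCGGAAG and AGGAAGT, the RUNX core TGTGGT and the C/EBP pattern TTNNGNAA, in which N is any base.
Lyz2: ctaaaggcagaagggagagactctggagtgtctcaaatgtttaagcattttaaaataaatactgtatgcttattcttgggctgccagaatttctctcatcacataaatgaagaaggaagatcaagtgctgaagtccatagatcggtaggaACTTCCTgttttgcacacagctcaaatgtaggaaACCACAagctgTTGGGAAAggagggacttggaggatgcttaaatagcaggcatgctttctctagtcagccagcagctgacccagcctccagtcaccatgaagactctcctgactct
S100a8: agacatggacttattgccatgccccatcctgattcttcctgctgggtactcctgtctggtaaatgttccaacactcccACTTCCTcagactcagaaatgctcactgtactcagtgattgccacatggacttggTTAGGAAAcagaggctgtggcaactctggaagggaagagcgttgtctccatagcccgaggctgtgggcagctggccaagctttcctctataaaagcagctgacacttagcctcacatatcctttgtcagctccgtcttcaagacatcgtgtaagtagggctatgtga
S100a9: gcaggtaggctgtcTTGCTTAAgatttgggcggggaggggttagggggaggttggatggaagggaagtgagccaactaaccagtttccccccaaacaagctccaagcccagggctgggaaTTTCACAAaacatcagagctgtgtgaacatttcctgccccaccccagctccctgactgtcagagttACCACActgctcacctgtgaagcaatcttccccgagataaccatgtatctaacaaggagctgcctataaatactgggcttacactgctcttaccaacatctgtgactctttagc
Fcnb: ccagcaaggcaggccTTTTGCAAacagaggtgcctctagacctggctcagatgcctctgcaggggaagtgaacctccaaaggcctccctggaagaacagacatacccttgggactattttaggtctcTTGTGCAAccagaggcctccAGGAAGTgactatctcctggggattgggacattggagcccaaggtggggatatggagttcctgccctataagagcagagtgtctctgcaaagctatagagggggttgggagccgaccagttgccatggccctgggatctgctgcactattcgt
Runx1: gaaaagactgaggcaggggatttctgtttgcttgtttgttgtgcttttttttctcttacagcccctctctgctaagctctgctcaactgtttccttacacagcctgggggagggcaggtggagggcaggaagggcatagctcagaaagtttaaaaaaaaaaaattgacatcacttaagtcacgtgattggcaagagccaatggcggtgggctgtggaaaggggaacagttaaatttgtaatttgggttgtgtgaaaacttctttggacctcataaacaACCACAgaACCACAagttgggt
Lyl1: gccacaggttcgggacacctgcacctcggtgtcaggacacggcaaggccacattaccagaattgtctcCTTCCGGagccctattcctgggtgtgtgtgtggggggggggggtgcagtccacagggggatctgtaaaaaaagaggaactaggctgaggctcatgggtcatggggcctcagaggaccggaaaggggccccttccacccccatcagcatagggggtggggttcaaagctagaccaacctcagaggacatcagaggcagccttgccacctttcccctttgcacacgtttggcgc
Hk3: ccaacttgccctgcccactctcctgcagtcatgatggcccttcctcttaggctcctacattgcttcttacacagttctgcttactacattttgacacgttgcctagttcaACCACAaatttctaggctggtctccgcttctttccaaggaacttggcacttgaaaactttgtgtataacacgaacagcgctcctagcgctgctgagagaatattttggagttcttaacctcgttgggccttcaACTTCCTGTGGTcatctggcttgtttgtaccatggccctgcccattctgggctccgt
Cbl: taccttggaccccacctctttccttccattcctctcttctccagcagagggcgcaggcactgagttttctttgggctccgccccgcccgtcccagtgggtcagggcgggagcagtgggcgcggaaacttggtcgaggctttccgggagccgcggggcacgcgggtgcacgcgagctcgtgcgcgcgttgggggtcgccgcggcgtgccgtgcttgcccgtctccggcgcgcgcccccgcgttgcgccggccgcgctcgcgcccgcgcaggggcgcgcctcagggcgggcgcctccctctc

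The Lyz2 promoter holds all of AGGAAGT, the RUNX core and the C/EBP pattern, each 1 time. The Hk3 promoter holds the RUNX core 2 times, and 1 of these overlaps the AGGAAGT match in an unbroken run of capitals. In Runx1 both matches are RUNX cores that lie a few bases apart near the transcription start. S100a9 has 2 C/EBP matches and 1 RUNX core, S100a8 has 1 C/EBP match and 1 AGGAAGT, Fcnb has 2 C/EBP matches and 1 AGGAAGT, and Lyl1 has 1 CCGGAAG. None of the 4 motifs occurs in the Cbl window. A match is a run of letters, not a bound site, and a window without one says nothing about the factor.

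The shared sites were narrow and nearly coincided between the cultures. AML widths ran from 651 to 1563 bp with a median of 718 bp (quartiles 681 and 772). The myeloid widths, added up where a member met 2 sites, ran from 628 to 3605 bp with a median of 809 bp (736 and 965). The midpoints of both sites lay a median of 33 bp apart (15 and 78.5; largest 1148 bp), and in 398 of 491 members (81.1%) they lay within 100 bp. The whole AML site was inside the myeloid site in 267 members (54.4%, interval 49.9 to 58.9), and at least 0.5 of its length in 484 (98.6%). The myeloid site was the wider of both in 387 members (78.8%, 74.9 to 82.4). Members formed from 2 or more deposited AML rows numbered 10, and 3 members met 2 myeloid sites each.

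**Figure D1:**
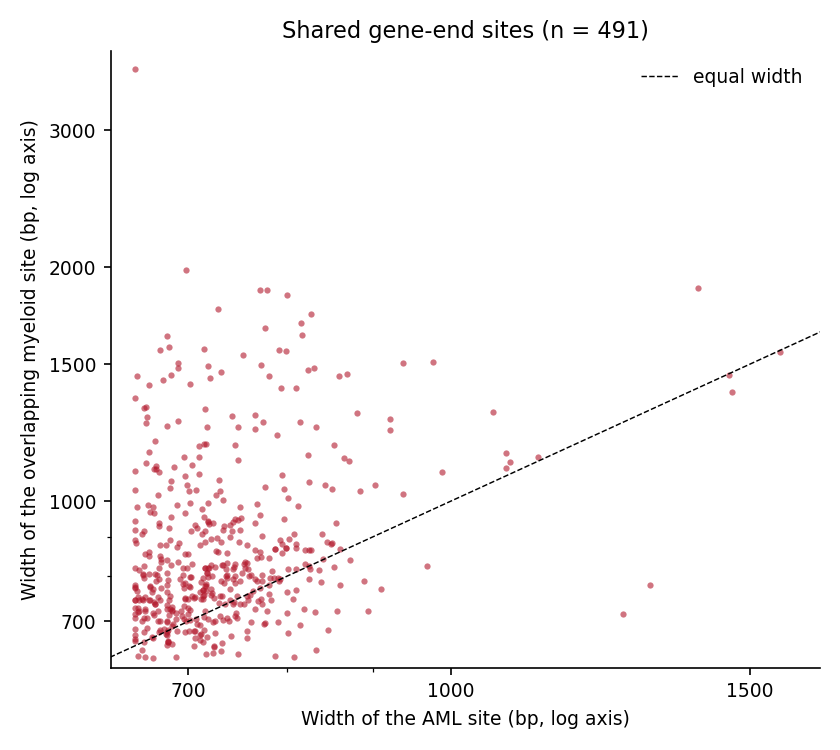
Width of the AML site (x axis, bp, log scale) against the width of the myeloid site it overlaps (y axis, bp, log scale) for the 491 shared gene-end sites, 1 point per site. For the 3 members that met 2 myeloid sites the widths of both are added. The dashed line marks equal width. Most points, 387 of 491, lie above the line, and AML widths stay within a narrower range than myeloid widths.

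The widest members did not lie at the ends of myeloid genes alone. The widest AML site, 1563 bp at chr7:45082144-45083707, had its midpoint 11 bp from the transcription end of Rcn3, a calcium-binding protein of the secretory pathway, and 1507 bp of it were shared. The next widest were at Cd3d, a T cell receptor subunit (1465 bp, 1347 bp in common), F10, a coagulation factor (1458 and 1444 bp), Sfr1, a recombination protein (1398 and 1398 bp), and Kctd12 (1311 and 780 bp). Cdhr5, a cadherin-related gene, completed the 5 with the most sequence in common, at 1083 bp. At the other extreme the sites of both cultures only touched: 40 bp were in common at Zkscan6, a zinc finger gene, 85 bp at Atg10, an autophagy enzyme gene, 96 bp at Chil3, 125 bp at Vim, and 138 bp at Gpr155. At Chil3 the midpoints lay 591 bp apart and at Vim 564 bp apart, so that shared there means neighbouring sites with a common edge.

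Sharing at gene ends was high from the AML side and low from the myeloid side. Of the 593 AML sites at gene ends, 491 were shared (82.8%), against 70.7% of AML sites elsewhere. Of the 4173 myeloid sites at gene ends, 493 were shared (11.8%, 10.9 to 12.8), against 30.4% of myeloid sites elsewhere. These counts follow from the rule and from the lengths of the lists, so they are given without a test. The comparison sites below are the 3680 gene-end sites of the myeloid list that met no AML site, the 102 gene-end sites of the AML list that met no myeloid site, and the 4374 shared sites away from gene ends.

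Distances to the gene end had a median of 208 bp (quartiles 81 and 548), with 140 members (28.5%) within 100 bp and 358 (72.9%) within 500 bp. Just inside the limit lay Zfp128 at 986 bp, Igsf8 at 991 bp, Morc3 and Kri1 at 994 bp, and Rffl at 999 bp. Just outside it lay shared sites at Fyco1 (1007 bp), Gabbr1, Jmjd6 and Wfdc21 (1010 bp each) and Sirpa (1013 bp).

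Most shared gene-end sites marked transcription starts, but fewer than among sites of the myeloid list alone. Strand was known for 395 members, of which 325 were nearest to a start (82.3%, 78.2 to 85.9) and 70 to an end of transcription; for the other 96 members the nearest end was not classed. Among myeloid-only gene-end sites 2792 of 3015 were at starts (92.6%, 91.6 to 93.5), and the odds ratio was 0.371 (0.275 to 0.505; Fisher's exact test, two-sided, Benjamini-Hochberg adjusted over 15 tests, p = 2.08e-09). Among AML-only gene-end sites 44 of 92 were at starts (47.8%, 37.3 to 58.5; odds ratio 5.04, 3.03 to 8.45; adjusted p = 5.58e-10 by Fisher's exact test). The shared sites thus lay between both 1-culture classes in this share. Members were chosen for meeting a site of the other list and the comparison sites for meeting none. Since the 2 lists differ in how often their gene-end sites lie at starts, neither contrast is independent of the rule.

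Members also sat less tightly on the start than myeloid-only sites, as did AML-only sites. Relative to the start the midpoints of members had a median of -15 bp (quartiles -180 and 149; negative values are upstream), and 32.9% lay within 100 bp of it, against 53.2% of the myeloid-only sites, whose median was -6 bp (-87 and 98). Of the 44 AML-only sites at starts, 29.55% lay within 100 bp, and their median was 82 bp (-90.5 and 444.8). Around ends of transcription the 70 members had a median of 172 bp downstream, and 5.71% lay within 100 bp. The fullest bins were those from 200 to 300 bp and from 300 to 400 bp past the end, with 14.3% and 10.0% of these members. These distances are given as a description, since the rule used them.

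**Figure D2:**
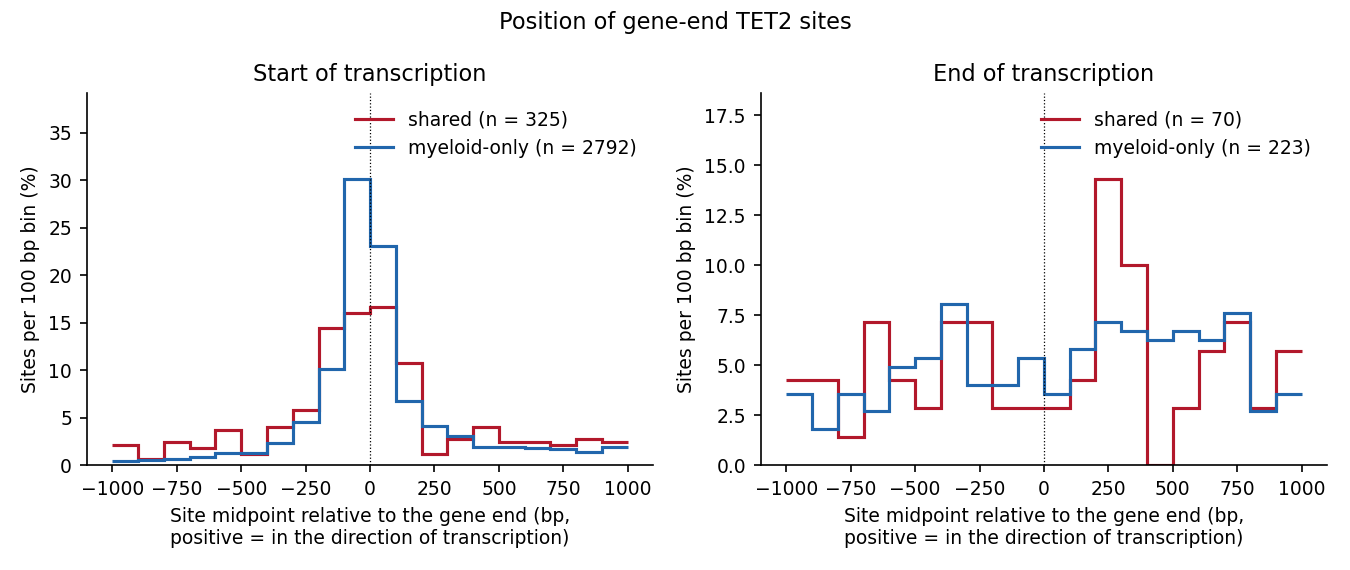
Share of sites per 100 bp bin (y axis, %) by distance of the site midpoint from the transcription start (left) or transcription end (right; x axes, bp, positive in the direction of transcription) for shared (red) and myeloid-only (blue) gene-end sites of known strand. Both classes peak at the start, with 32.9% of the 325 shared and 53.2% of the 2792 myeloid-only sites within 100 bp; at the transcription end neither class peaks on the end itself.

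Fewer members served ends of several genes. Ends of 2 genes lay within 1 kb of 50 members (10.2%, 7.65 to 13.2) and of no member were there 3, while 642 of the 3680 myeloid-only sites (17.4%, 16.2 to 18.7) had 2 or more (odds ratio 0.537, 0.387 to 0.730; Fisher's exact test, adjusted p = 5.35e-05). Against the AML-only sites, of which 9 of 102 had 2 or more, no difference was detected (odds ratio 1.17, 0.545 to 2.81; adjusted p = 0.856 by Fisher's exact test). With all annotated genes the odds ratio was 2.18 and passed (Fisher's exact test, adjusted p = 0.00583). Among the 50, 20 had starts of both genes, 12 a start and an end, 4 ends of both, and in 14 the strand of at least 1 gene was not given. Cbx5, a heterochromatin protein, and Hnrnpa1, a splicing protein, shared 1 such site, with its midpoint 101 and 140 bp from their starts. The midpoint lay inside Cbx5 and upstream of Hnrnpa1. The chemokine genes Ccl3 and Ccl4 shared another, 104 bp upstream of the start of Ccl3.

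Other TET2 sites lay near members more often than near the rest of the gene-end sites of the myeloid list. A further myeloid site was found within 10 kb of 239 members (48.7%, 44.2 to 53.2), against 34.5% (32.9 to 36.0) of myeloid-only gene-end sites (odds ratio 1.80, 1.49 to 2.19; adjusted p = 6.06e-09 by Fisher's exact test). The share was 34.3% (25.2 to 44.4) of AML-only gene-end sites (odds ratio 1.81, 1.14 to 2.92; adjusted p = 0.0132 by Fisher's exact test). With a limit of 0.5 kb this was no longer below 0.05 (odds ratio 1.88, adjusted p = 0.0616 by Fisher's exact test). A further AML site was found near 106 members (21.6%, 18.03 to 25.5) and near 13.5% (12.4 to 14.6) of the myeloid-only sites (odds ratio 1.77, 1.39 to 2.25; Fisher's exact test, adjusted p = 1.03e-05). Against AML-only sites, at 18.6%, the difference was not detectable (odds ratio 1.20, 0.686 to 2.20; Fisher's exact test, adjusted p = 0.685). Members were chosen for meeting an AML site and myeloid-only sites for meeting none. The contrast of AML neighbours between these classes is therefore not independent of the rule. The same holds for myeloid neighbours between members and AML-only sites.

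Against shared sites away from gene ends, no difference was detected for myeloid neighbours, and fewer members had AML neighbours. Of the shared sites away from gene ends, 49.2% had another myeloid site within 10 kb (odds ratio 0.978, 0.807 to 1.18; Fisher's exact test, adjusted p = 0.856), a difference of -0.569 percentage points. Another AML site lay within 10 kb of 26.9% of them (25.6 to 28.3; odds ratio 0.748, 0.591 to 0.940; Fisher's exact test, adjusted p = 0.0151). With 1 site kept per 100 kb window and class, an alternative chosen after the data were seen, the first odds ratio turned to 1.26 (adjusted p = 0.0346 by Fisher's exact test) and the second to 1.15 (0.324). With all annotated genes, or neighbours within 50 kb, the second kept its direction and was no longer below 0.05 (adjusted p = 0.193 and 0.0717 by Fisher's exact test).

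**Figure D3:**
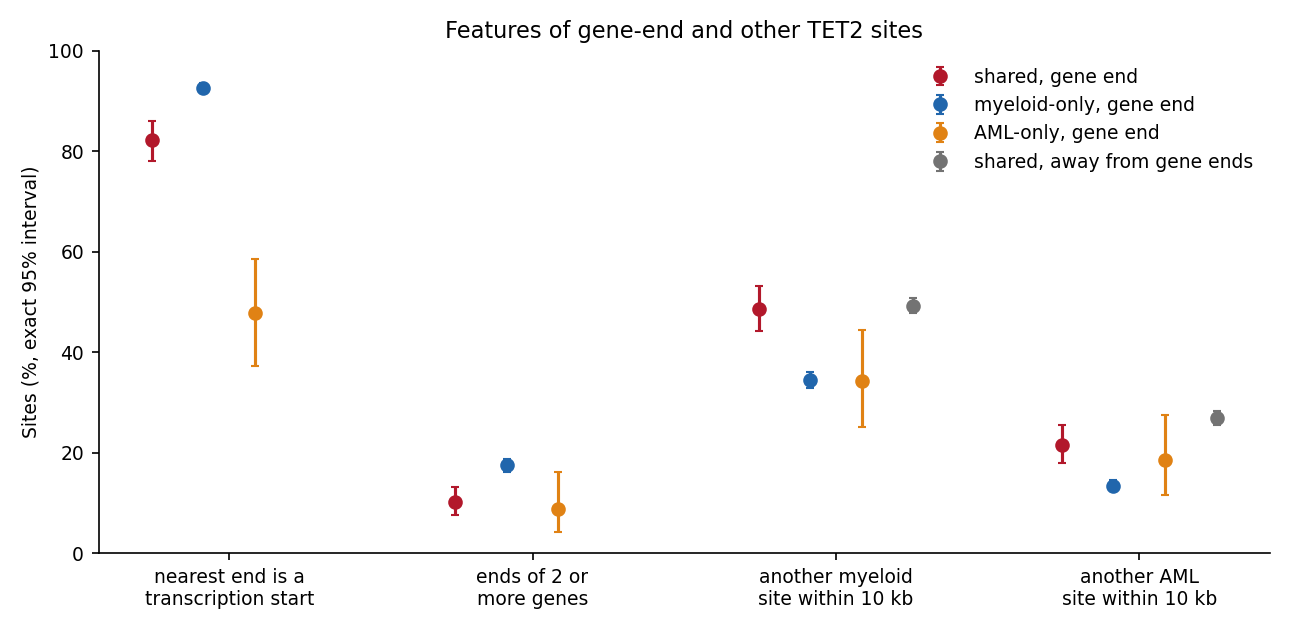
Share of sites (y axis, %, with exact 95% intervals) whose nearest gene end is a transcription start, that hold ends of 2 or more genes, and that have another myeloid or another AML site within 10 kb (x axis). Shared gene-end sites (red, 82.3%, 10.2%, 48.7% and 21.6%) lie apart from myeloid-only gene-end sites (blue, 92.6%, 17.4%, 34.5% and 13.5%) in all 4 shares; AML-only gene-end sites are orange, and shared sites away from gene ends, drawn for neighbours alone, are grey.

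Of the 494 myeloid partners of members, 407 (82.4%) were wider than the myeloid median of 710 bp, as were 2016 of 3680 myeloid-only gene-end sites (54.8%). On the AML side 233 members (47.5%) and 40.2% of AML-only gene-end sites exceeded the AML median of 721 bp. A wider site meets a site of another list more easily, so width takes part in the choice of members and these shares are given as a description. Between shared sites, which all met the other list, fewer members were wide than sites away from gene ends, at 54.5% (odds ratio 0.754, 0.622 to 0.913; Fisher's exact test, adjusted p = 0.00513). With transcription starts only this difference was no longer below 0.05 (odds ratio 0.809, adjusted p = 0.106 by Fisher's exact test).

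The members lay at the ends of 534 protein-coding genes, 2.58% of the 20665 genes on these chromosomes, while 22.3% of genes had any myeloid site at an end and 3.1% any AML site. Genes with a member also had TET2 sites elsewhere more often. Of the 534 genes, 289 (54.1%, 49.8 to 58.4) were the nearest gene to a myeloid site away from gene ends, against 1657 of 4071 genes with myeloid-only gene-end sites (40.7%, 39.2 to 42.2; odds ratio 1.72, 1.43 to 2.07; Fisher's exact test, adjusted p = 1.51e-08). For AML sites the shares were 31.8% (170 genes) and 23.5% (956 genes; odds ratio 1.52, 1.24 to 1.86; Fisher's exact test, adjusted p = 6.83e-05). Genes with a member were chosen for a gene-end site that met an AML site, so this AML contrast is not independent of the rule. Median gene length was 21.2 kb and 20.6 kb in these groups.

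Granule and neutrophil genes had the highest share of genes with a member among the lists examined, 8 of 23 (34.8%, 16.4 to 57.3), where 2.58% of all genes had one. The granule genes Mpo, Elane, Prtn3, Ctsg, Ltf, Ngp and Mmp9 of this list had no member. S100a9 had its site 70 bp upstream of its start at chr3:90695371-90696212, of which 97.0% was shared. S100a8 had one 111 bp upstream at chr3:90668588-90669332, with 100% shared, and 26.8 kb separated both sites. Fcnb had its member 81 bp upstream of the start, Camp, which encodes the antimicrobial peptide cathelicidin, 171 bp upstream, and Lcn2, an iron-siderophore binding protein of secondary granules, 177 bp upstream. At the chitinase-like gene Chil3 the site lay 604 bp upstream, and only 13.2% of it was shared. The 2 remaining genes were Itgam, the integrin chain CD11b, with a site 893 bp into the gene, and the collagenase gene Mmp8, with a site 979 bp before its transcription end.

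Of the 14 granule and neutrophil genes with any myeloid gene-end site, 57.1% thus had a shared one, against 11.5% of all 4608 such genes.

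Monocyte and macrophage genes had 4 of 24 (16.7%, 4.74 to 37.4), and at these 4 the midpoints of the AML and myeloid sites lay 21 to 62 bp apart. Tlr4, the receptor of bacterial lipopolysaccharide, had a site 8 bp from an end. The Lyz2 site lay 68 bp upstream of its start at chr10:117281986-117282694 and met a myeloid site of nearly the same width (708 and 695 bp). Cx3cr1, the fractalkine receptor, had a site 86 bp upstream of its start, and Tyrobp, a signalling adaptor of myeloid receptors, one 927 bp from an end, with 4 more myeloid sites within 10 kb.

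Mast cell, basophil and eosinophil genes had 1 of 16 (6.25%, 0.158 to 30.2), an interval that includes the 2.58% of all genes. The gene was the basophil protease gene Mcpt8, with a site 198 bp into it. Its promoter window holds the RUNX core 2 times and no CpG at all.

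Transcription factor genes of blood and myeloid cells had 9 of 56 (16.1%, 7.62 to 28.3). Lyl1 had its site 19 bp upstream of a start at chr8:84701070-84701738, wholly inside a myeloid site of 1100 bp. At Runx1 the site lay 29 bp downstream of the start at chr16:92825705-92826385, wholly inside the myeloid site, and Runx1 had 7 further shared sites, more than any other gene with a member. Nfe2, a factor of megakaryocytes and red cells that is also expressed in myeloid cells, had a site 70 bp from an end, 937 bp wide. Klf6 had one 81 bp past its transcription end, with 4 further myeloid sites within 10 kb. Klf2, a factor that restrains inflammatory activation, had 2 members, 158 bp upstream of its start and 930 bp past its end, 3.68 kb apart. Irf2, an interferon regulatory factor, had a site 186 bp upstream of its start. The other 3 were Bcl6 (204 bp into the gene), Cebpd and Spi1, which encodes PU.1, the ETS factor of myeloid and B cells; the Spi1 site lay 708 bp from an end, on chromosome 2, and 12.7 kb from a member at Slc39a13, a zinc transporter gene.

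Inflammatory control genes had 9 of 29 (31.0%, 15.3 to 50.8), among them brakes on NF-kB and the subunit genes Nfkb2 and Relb. The inhibitor genes Nfkbib, Nfkbid, Nfkbie and Tnip1 of this list had no member. Nlrp3, an inflammasome sensor, had a site 27 bp upstream of its start. Tnfaip3, which encodes the NF-kB inhibitor A20, had one 133 bp upstream of its start. Nfkbia, which encodes the inhibitor of NF-kB alpha, had 2 members, 658 bp into the gene and 557 bp past its end, both with 100% of the AML site shared, and 3 further shared sites. Ier3, an immediate early gene, also had 2, 447 bp upstream of its start and 151 bp past its end. Irak3, an inhibitor of Toll-like receptor signalling, had a site 311 bp past its end. Zfp36l1, an RNA-binding protein that promotes mRNA decay, had one 347 bp from its start. The subunit gene Nfkb2 had one 464 bp into the gene. Relb and Zfp36l2 completed the list, at 680 and 759 bp from an end.

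Chemokine and G protein-coupled receptor genes had 7 of 29 (24.1%, 10.3 to 43.5). C3ar1, the receptor of complement C3a, had a site 47 bp upstream of its start, and Ptafr, the receptor of platelet-activating factor, 54 bp downstream. Ccl3 had one 104 bp upstream, the site also within 1 kb of an end of Ccl4, and Ccl6 one 568 bp upstream. Gpr84, a receptor of medium-chain fatty acids, had a site 427 bp before its transcription end. C5ar1, the receptor of complement C5a, had one 557 bp past its end with 4 other myeloid and 4 other AML sites within 10 kb, the most AML neighbours of any member. A member at C5ar2, its related receptor, lay 1.87 kb away.

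Of 38 integrin, cytoskeleton and motility genes, 5 had a member (13.2%, 4.41 to 28.1). Fermt3, the kindlin that activates integrins in blood cells, had a site 22 bp upstream of its start, and Itgal, the LFA-1 alpha chain, one 127 bp from an end. Vim (99 bp into the gene), Cdc42 (694 bp) and Arhgap45 (904 bp) had theirs inside the gene.

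The lists of cytokine and growth factor signalling came next. The RAS and ERK list had 3 of 29 (10.3%, 2.19 to 27.4), among them Cbl, 89 bp downstream of its start, and Dusp6, an ERK phosphatase, 186 bp upstream of its start. Of 35 cytokine receptor and JAK-STAT genes 2 had a member (5.71%, 0.700 to 19.2), Osm, the cytokine oncostatin M, at 82 bp from an end, and Il3ra, the alpha chain of the interleukin 3 receptor, 465 bp into the gene. The intervals of both lists include the 2.58% of all genes. Both lists had many genes with some myeloid gene-end site, 17 and 18, of which 17.6% and 11.1% had a shared one.

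Over the union of these 9 myeloid and signalling lists 48 of 279 genes had a member (17.2%, 13.0 to 22.2), and 147 had any myeloid gene-end site, of which 32.7% had a shared one. Over the union of 4 lists of other blood lineages and tissues 1 of 78 had a member (1.28%, 0.0325 to 6.94), at Cd3d, 243 bp before its transcription end. This interval includes the 2.58% of all genes. Only 6 of the 78 had any myeloid gene-end site, of which 16.7% had a shared one, against 11.5% of all such genes. The lists were made with earlier results of these sites known and are given as counts beside the background, with no test. Erythroid and megakaryocyte genes had 0 of 19, neuronal genes 0 of 19 and liver genes 0 of 16, which allow up to 17.6%, 17.6% and 20.6%.

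**Figure D4:**
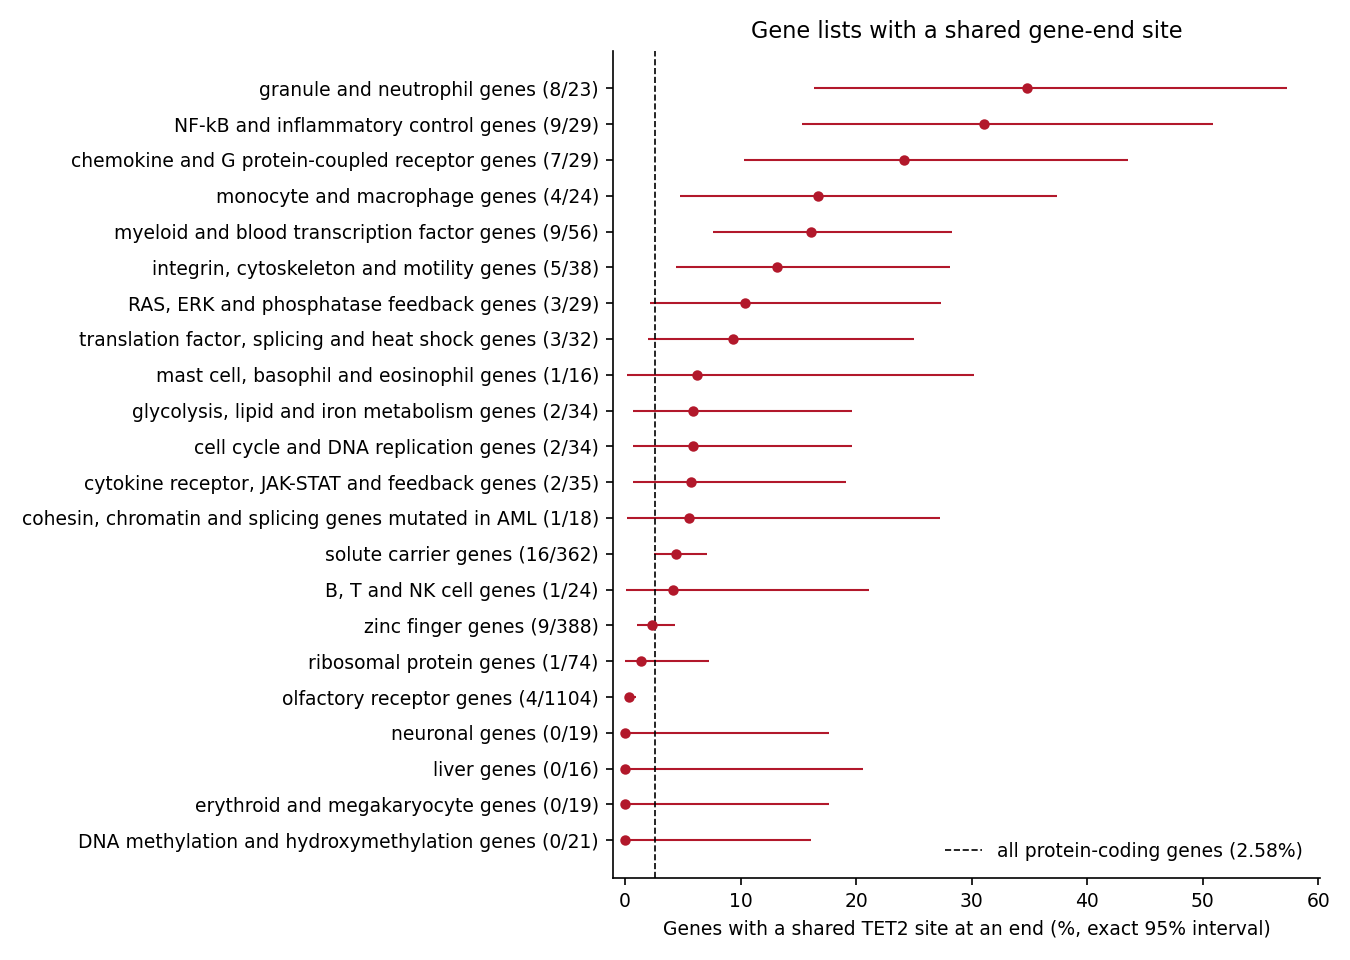
Percent of the genes of each list with a shared TET2 site at an end (x axis, points with exact 95% intervals; counts of genes in brackets), by gene list (y axis). Granule and neutrophil (8 of 23), inflammatory control (9 of 29) and chemokine and G protein-coupled receptor genes (7 of 29) lie farthest above the dashed line. The line marks 2.58% of all protein-coding genes, and olfactory receptor genes lie below it.

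Lists of more general cell functions, which also hold some genes of blood cells, had shares on both sides of the 2.58% of all genes. Their intervals all include that value. Ribosomal protein genes often had a myeloid site at an end, 38 of 74, but 1 had a shared one (1.35%, 0.0342 to 7.30), Rps9, where the site lay 300 bp past the transcription end. DNA methylation and hydroxymethylation genes, TET2's own pathway, had 0 of 21 (up to 16.1%), although 10 had a myeloid gene-end site. Of translation, splicing and heat shock genes 3 of 32 had a member (9.38%, 1.98 to 25.02): the poly(A)-binding protein gene Pabpc1 at 28 bp, Hnrnpa1 at 140 bp, and Ncl, which encodes nucleolin, 217 bp past its end. Cell cycle genes had 2 of 34, Ccnd3, a D-type cyclin of blood cells, 8 bp upstream of a start, and the inhibitor gene Cdkn2d, 243 bp past its end. Of chromatin and splicing genes mutated in AML 1 of 18 had a member, Asxl2, 160 bp upstream of its start. Metabolic genes had 2 of 34, the phagosome metal transporter gene Slc11a1, 112 bp into the gene, and Hk3, 136 bp into the gene, with 84.2% of the AML site shared.

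Gene families chosen by symbol had shares between 0.362% and 4.42%. Solute carriers had 16 of 362 (4.42%, 2.55 to 7.08), zinc finger genes 9 of 388 (2.32%, 1.07 to 4.36), and olfactory receptors 4 of 1104 (0.362%, 0.0988 to 0.925). The 4 olfactory receptor genes were Olfr229, Olfr1301, Olfr432 and Olfr70. Few olfactory receptor genes had any myeloid gene-end site, 9, and 44.4% of these had a shared one. For solute carriers it was 20% of 80 such genes and for zinc finger genes 10.3% of 87.

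Several members lay together. Of the 491, 48 formed 24 pairs of sites within 50 kb, and no run held 3 or more. Besides those at Klf2, Nfkbia and Ier3, 2 members served Trem1, an amplifying receptor of neutrophils and monocytes, 27 bp upstream of its start and, 14.9 kb on, near the end of its relative Trem3 (41 bp). Styk1 and Kri1 had 2 members each. Named after their positions were seen, pairs also lay at the related receptor genes Pilrb1 and Pilrb2 (13.7 kb) and at the stefin-like genes Cstdc6 and Cstdc5 (33.2 kb).

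Genes with a member could also hold further shared sites nearest to them: 145 of the 534 had at least 1 and 17 at least 3. After Runx1 came Susd1 with 6, Klf13, a zinc finger factor, with 5, and Ccnd3 with 4. The 13 with 3 were Nfkbia, C5ar1, Zc3h12a, a ribonuclease that degrades inflammatory mRNA, Itpkb, Slfn2, Nedd9, Map3k20, Angpt1, N4bp1, Wdfy2, Eif2d, Abcd2 and Cfap54. Across chromosomes the share of genes with a member ran from 0.783% on chromosome 18 (4 of 511) to 3.68% on chromosome 16 (25 of 679).

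The table of promoters held 20085 windows of 300 bases for 16457 genes, and 356 windows of 319 genes belonged to genes with a member at the start, 215 of them wholly inside both sites (60.4%). A window was called CpG-rich when GC was at least 50% and the observed over expected CpG ratio at least 0.6. Of the promoters at shared sites 59.3% were CpG-rich (54.0 to 64.4), against 80.6% (79.2 to 81.9) of the 3498 at myeloid-only gene-end sites and 46.5% (45.8 to 47.2) of all promoters. The median CpG ratio was 0.760, 0.826 and 0.586 in that order, and the lower quartile 0.354, 0.681 and 0.234. Seen from the promoters, 145 CpG-poor promoters had a shared site and 679 a myeloid-only one, so 17.6% of those with either site were at shared sites. Among CpG-rich promoters 211 had a shared site and 2819 a myeloid-only one (6.96%). Over all promoters of each class the order was the other way. A shared site was at 1.35% of the 10749 CpG-poor and 2.26% of the 9336 CpG-rich promoters. Windows of 1 gene overlap and are not separate units, so these shares have no test.

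**Figure D5:**
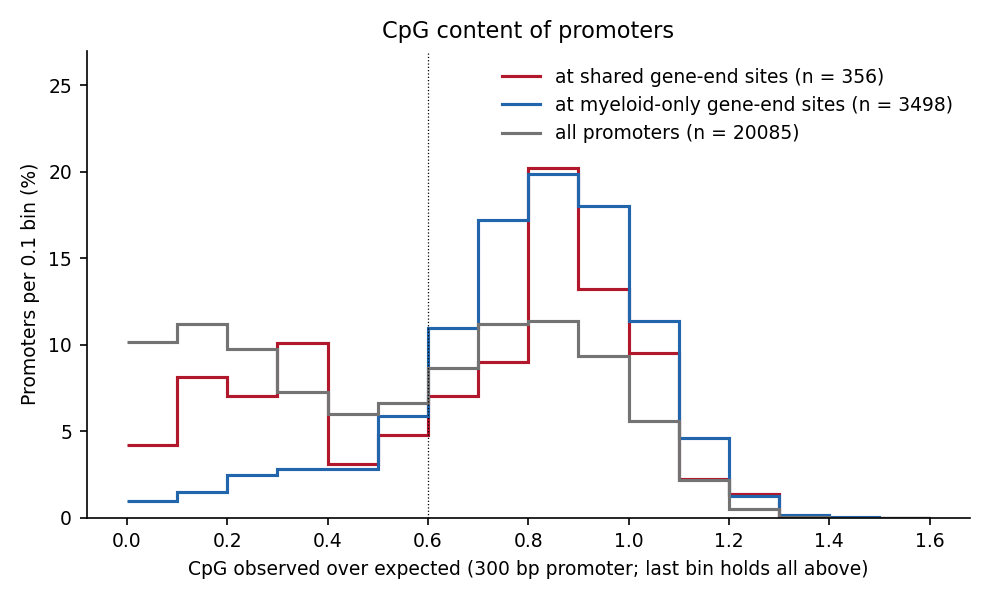
Share of promoters (y axis, %) per 0.1 bin of the CpG observed over expected ratio (x axis) for promoters at shared gene-end sites (red, n = 356), at myeloid-only gene-end sites (blue, n = 3498) and in the whole table (grey, n = 20085); the dotted line marks the limit of 0.6. The red line has 2 humps, with more promoters below the limit than the blue line and more above it than the grey line.

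The RUNX core TGTGGT occurred in 21.9% of promoters at shared sites (17.7 to 26.6), in 12.4% at myeloid-only sites (11.3 to 13.5) and in 14.8% of all promoters. AGGAAGT, a form of the ETS site that PU.1 can bind, occurred in 17.98% (14.1 to 22.4), 10.2% and 9.08%, and the C/EBP pattern TTNNGNAA in 41.0%, 29.4% and 37.0%. The ETS form CCGGAAG, frequent in CpG-rich promoters, occurred in 24.2% of promoters at shared sites, 27.3% at myeloid-only sites and 11.9% of all. The AP-1 pattern TGANTCA occurred in 8.71%, 4.15% and 7.06%, and the GC box GGGCGG in 59.8%, 70.6% and 47.0%. In all, 11 motifs were searched. Of the others, CCAAT occurred in 31.5%, 35.65% and 38.1%, the GATA motif AGATAA in 8.43%, 5.35% and 9.57%, and TATAAA in 8.15%, 5.40% and 12.7%. The CRE motif TGACGTCA occurred in 2.25%, 3.83% and 2.30%, and the E-box CACGTG in 8.71%, 11.75% and 7.89%.

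Among CpG-poor promoters alone, the RUNX core was in 34.5% of those at shared sites (26.8 to 42.8), in 17.8% at myeloid-only sites (15.0 to 20.9) and in 19.5% of all CpG-poor promoters (18.8 to 20.3). AGGAAGT was in 27.6% (20.5 to 35.6), 17.2% (14.5 to 20.3) and 11.4%. The C/EBP pattern was in 55.9% (47.4 to 64.1), 49.5% (45.7 to 53.3) and 48.7%. Among CpG-rich promoters the intervals of shared and myeloid-only sites overlapped for each of these motifs. There the RUNX core was in 13.3% at shared sites (9.002 to 18.6), 11.1% at myeloid-only sites (9.93 to 12.3) and 9.25% of all. AGGAAGT was in 11.4% (7.425 to 16.45), 8.55% (7.54 to 9.64) and 6.36%, and the C/EBP pattern in 30.8% (24.65 to 37.5), 24.55% (22.97 to 26.2) and 23.6%. The Lyz2, Hk3, S100a9 and Runx1 promoters shown above are CpG-poor promoters with a RUNX core. Each motif was searched on both strands, and matches that overlap another motif, as in Hk3, count for both. All of these shares are descriptions of letters in a window, without a test, and since windows of 1 gene overlap, their intervals are too narrow.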

How the data were processed

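TET2 ChIP-seq was made from 12 libraries of 2 mouse cultures. Per the submitters' processing notes, Trimmomatic, Bowtie2, MACS2 and mm10 were used, without versions. The authors deposited site coordinates and no other values: per the file headers, the columns of each list are chr, start and end. The sources used here do not state whether replicates were pooled, how knockout, IgG and input libraries entered, or whether starts count from 0 or 1. Depth is unknown.

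Overlapping rows were merged (Python 3.11.15, pandas 2.3.3). Genes, promoters and strand (16457 of 20665 protein-coding genes) came from RefSeq tables of GRCm38.p6. Sites were compared by two-sided Fisher's exact test (scipy 1.17.1), adjusted over 15 tests, and the code was tested on simulated data. The members and the 23 gene lists were chosen with earlier results of these data known; 21 listed genes were not found on chromosomes 1 to 19, and the rule for histone symbols matched 0 genes. Genes in the text are up to 6 per list nearest to a site, those of the 5 widest and of the 5 most and fewest common base pairs, those with 2 members, those at the 1 kb limit and those with at least 3 further shared sites. The other genes, such as Itgam, Mmp8, Bcl6, Cebpd, Spi1, Relb, Zfp36l2, C5ar2, Cbx5, Ccl4 and the pairs within 50 kb, were named after their values were seen. Some genes that the rule takes are left out of the text. Alternatives changed the distance, the genes, the merging, the overlap, the neighbour distance and the unit counted.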

Additional observations from a re-analysis of the deposited data

How the results depend on the processing

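Over 15 tested comparisons and 137 alternative values, 125 kept their direction and side of the threshold, 4 were no longer below 0.05, 2 came below it and 6 turned direction. The number of shared gene-end sites was 751 with a 2 kb limit, 763 with all annotated genes and 325 with transcription starts only. The share of genes of the 9 myeloid and signalling lists with such a site was 12.2% at 0.5 kb, 22.2% at 2 kb and 11.1% with starts only, beside 1.85%, 4.02% and 1.57% of all genes. By list, the genes with such a site at 0.5 kb were 5 for granule, 4 for chemokine and receptor, 3 for integrin, 2 for olfactory, 5 for zinc finger and 9 for solute carrier genes. At 2 kb they were 5 for cytokine receptor, 2 for mast cell, 2 for B, T and NK cell, 1 for DNA methylation, 5 for translation and 4 for metabolic genes. With starts only they were 5 each for transcription factor and inflammatory control genes, 4 for chemokine and receptor genes, 2 each for monocyte and olfactory genes and 1 each for cytokine receptor and cell cycle genes. They were then 0 for B, T and NK cell, translation and ribosomal genes, 3 for zinc finger genes and 7 for solute carrier genes. The odds ratio of a myeloid neighbour against AML-only sites was 1.88 at 0.5 kb (Fisher's exact test, adjusted p = 0.0616). That of an AML neighbour against shared sites away from gene ends was 0.883 with all annotated genes and 0.828 for neighbours within 50 kb. It turned to 1.15 with 1 site per 100 kb window. The share of wide AML sites had an odds ratio of 0.809 against shared sites away from gene ends with starts only (adjusted p = 0.106 by Fisher's exact test), and of 1.53 against AML-only sites at 2 kb, a contrast in which width takes part in the choice. Sites with ends of 2 or more genes had an odds ratio of 2.18 against AML-only sites with all annotated genes (Fisher's exact test, adjusted p = 0.00583). The odds ratio of a myeloid neighbour against shared sites away from gene ends, 0.978 in the report, turned to 1.13 at 2 kb, 1.04 without merging, 1.01 with starts only, 1.14 for neighbours within 50 kb and 1.26 with 1 site per 100 kb window. Of all promoters 47.3% were CpG-rich when the most upstream start of each gene was used. The causes were not tested, except that smaller limits and starts only leave fewer sites by construction. No paired analysis was possible because the lists hold no value per library, and for the same reason no replicate could be left out.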
